A study of Mus musculus with 24 samples.

Results

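The genes described here are 40 components of the Wnt pathway, chosen by name: 11 Wnt ligands, 12 receptors (10 frizzled receptors and the co-receptors Lrp5 and Lrp6), 7 secreted inhibitors, 4 genes of the R-spondin and Lgr axis, and 6 genes of the nuclear arm with the feedback target Axin2. They were found in a table of 37991 genes by their Ensembl identifier, through the GENCODE M1 annotation of mouse genome build mm9. All 40 had a row with counts, and a second identifier that also carries the symbol Fzd10 had 0 counts in every sample and was left aside. A gene was tested when at least 12 of the 24 samples reached 1 CPM (counts over the total, scaled to 1e+06), which 14918 genes did. Of the 40 Wnt genes 33 were tested, and Wnt2b, Wnt10a, Wnt16, Fzd10, Rspo1, Rspo3 and Lef1 were under this limit and are given by their counts.

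RNA-seq was performed on mammary tumors of PyMT mice and normal mammary glands of FVB mice. All were females of the FVB strain, taken at 4 ages with 3 PyMT and 3 FVB mice at each age. PyMT mice are F1 females heterozygous for a transgene that drives the polyoma virus middle T antigen from the mouse mammary tumor virus (MMTV) promoter, which is active mainly in mammary epithelium, and FVB females without the transgene served as controls. PyMT tissue was hyperplasia in mice of 6 weeks, adenoma/MIN in those of 8, early carcinoma in those of 10 and late carcinoma in those of 12 weeks, and the FVB samples are normal glands of the same weeks. From H&E staining the paper reports carcinoma samples as mostly tumor cells with few stromal and muscle cells. No mouse was given an agent or carried another allele, and each sample is a separate mouse.

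Wnt ligands are secreted, lipid-modified proteins that bind frizzled receptors together with Lrp5 or Lrp6. Binding stops the destruction of β-catenin, which then enters the nucleus and switches on target genes with the Tcf/Lef factors, and other branches act without β-catenin. Secreted inhibitors (Sfrp, Dkk and Wif1) keep ligands or co-receptors from signalling, while R-spondins and their Lgr receptors strengthen the signal. In the mammary gland the pathway is known for its part in duct branching and in the upkeep of basal stem cells, and the first Wnt gene was found as a site where MMTV inserts in mouse mammary tumors.

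The total count per sample ran from 6969375 to 13516601. In 13 libraries (6 PyMT and 7 FVB) the number of genes with a given count had a second peak, at 8 to 25 counts, so that low counts in them are coarse. Of 3799 genes with a median level of 10 to 30 CPM, 4.40% were at 0 in FVB number 3 of week 10 and 2.87% in PyMT number 2 of week 8, against at most 0.211% in the 11 libraries without such a peak. Cell type markers also differed between the genotypes. Markers of luminal epithelium were present in every sample, with a summed normalized count (count over DESeq2's size factor) of 21161 to 40310.3 in PyMT tissue and 4341 to 19108 in the FVB glands. For adipocyte markers the PyMT sums ran from 1399 to 18845 and the FVB sums from 54494 to 162917. Those for fibroblast markers were 21571 to 45217 and 51479.8 to 188624, and those for endothelium 682 to 1895 and 3999 to 7965. For basal epithelium the sums were 1295 to 5968 and 4538 to 16192, and for skeletal muscle 0 to 30315 and 81.1 to 537862. Over all weeks 8 of 8 adipocyte, 7 of 7 fibroblast, 6 of 6 endothelial, 8 of 8 muscle and 5 of 8 basal markers fell in PyMT by the call rule given next. By that rule 7 of 8 luminal markers rose and 0 of 6 macrophage markers passed over all weeks. By week, 2 of 6 macrophage markers were called lower at week 10 and 0 at weeks 6, 8 and 12. Macrophage sums ran from 1950.4 to 4059.9 in the PyMT and from 2256 to 5632 in the FVB samples. All 6 lymphocyte markers were under the limit for testing, with sums of at most 45.1. None of the markers was at 0 in every sample of a genotype.

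**Figure D1:**
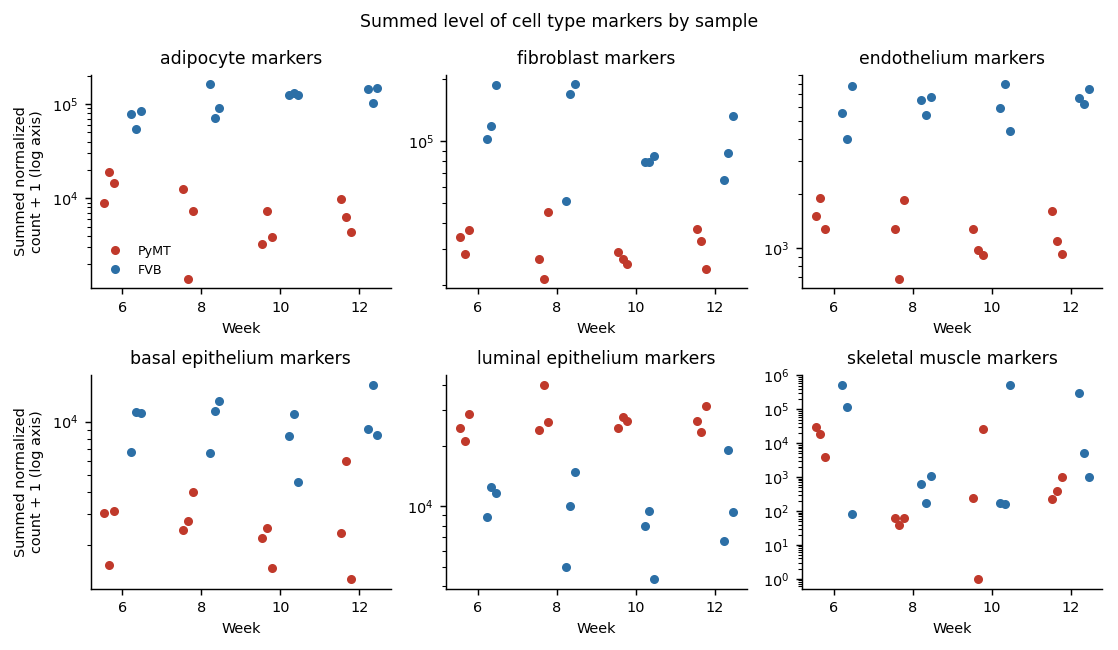
Summed normalized count (plus 1, log axis) of the markers of 6 cell types by week, 1 point per sample, PyMT red and FVB blue. Adipocyte, fibroblast and endothelial sums lie lower in all 12 PyMT samples than in all 12 FVB samples, luminal sums lie higher in all 12, and basal and skeletal muscle sums overlap.

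The first question was how the Wnt genes differ between PyMT tissue and normal glands. Over all weeks, 12 PyMT against 12 FVB samples with week as a covariate, 13 of the 33 tested genes were lower in PyMT and 0 were higher. A call means that the fold change exceeded 2 and the adjusted p was below 0.05, where p came from the quasi-likelihood test of edgeR and the Benjamini-Hochberg method was applied over all 14918 genes. Among all genes tested by the same rule 25.7% were called, 17.2% lower and 8.51% higher. The 13 were the ligands Wnt2, Wnt6, Wnt7b and Wnt11, the receptors Fzd1 and Fzd4, the inhibitors Sfrp2, Sfrp4, Sfrp5 and Wif1, the receptor and target Lgr5, the target Axin2 and the factor Tcf7l1. The median log2 fold change of the 33 genes was -0.85, and that of all genes was -0.03. With the library size as the only scaling 2 genes were higher, Fzd5 and Fzd9, and 12 lower. Fzd9 was also called higher under DESeq2, voom and the replicate block, so the count of 0 higher does not hold there. Marker levels of the cell types listed above differed between these tissues, and in bulk tissue fewer cells of a type and less RNA per cell cannot be told apart. The part of tissue make-up in the results was not tested.

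**Figure D2:**
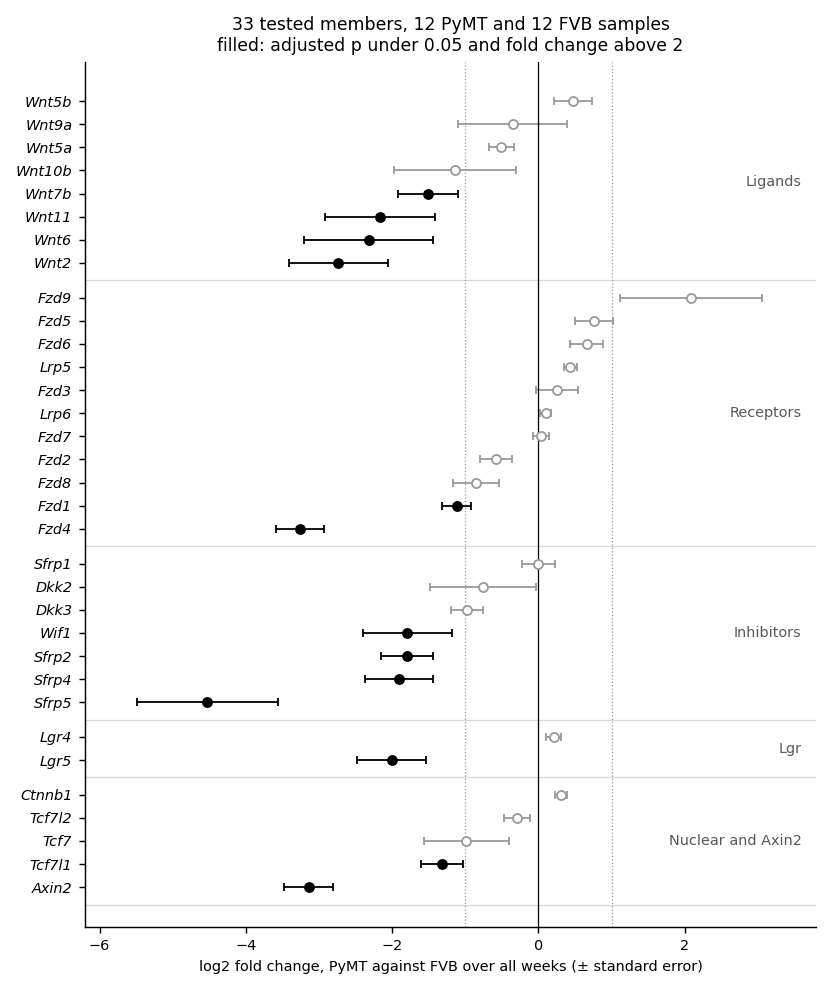
Log2 fold change of PyMT against FVB over all weeks for the 33 tested Wnt genes, with standard errors, 12 samples a genotype, grouped by role. Filled points mark the 13 called genes, all to the left of 0, from -1.12 for Fzd1 to -4.52 for Sfrp5, and dotted lines mark a fold change of 2.

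Axin2 (ENSMUSG00000000142, chr11:108781663-108812097, plus strand), a scaffold of the β-catenin destruction complex that β-catenin itself induces and a widely used readout of the pathway, was lower in all 12 PyMT samples than in all 12 FVB samples. At week 6 its normalized counts were 8.34, 44.8 and 98.8 in PyMT against 209.8, 224 and 429 in FVB. At week 8 they were 48.7, 68.8 and 90.9 in PyMT against 334, 399 and 515 in FVB, and at week 10 13.6, 20.5 and 25.6 against 288, 334 and 481. At week 12 they were 15.4, 26.8 and 85.5 against 344, 501 and 576. The lowest FVB value, 209.8, thus lay above the highest PyMT value, 98.8. Over all weeks Axin2 fell 8.82-fold (log2 fold change -3.14 ± 0.34, standard error, edgeR adjusted p = 3.3e-08). By week the log2 fold changes were -2.49 ± 0.75, -2.57 ± 0.34, -4.14 ± 0.44 and -3.43 ± 0.58, with edgeR adjusted p of 0.070, 0.0066, 0.00090 and 0.0039, so that week 6 did not pass. Over its alternatives the week 6 adjusted p ran from 0.0052 to 0.20, and it passed under DESeq2, voom, no filter and the fit of all 24 samples. Without the 2 libraries with the most genes at 0 the value over all weeks was -3.22.

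Fzd4 (ENSMUSG00000049791, chr7:96552876-96558620, plus strand), a frizzled receptor that also binds norrin and is known for its part in blood vessels, was the other gene whose 12 PyMT and 12 FVB samples did not overlap. Of the 33 genes 2 were lower and 0 higher in PyMT without overlap in this way, and of all tested genes 7.22% were lower and 4.67% higher. Its normalized counts were 273, 294 and 516 in PyMT against 899, 1554 and 2146 in FVB at week 6, and 22.5, 203 and 275 against 1047, 1946 and 2598 at week 8. At week 10 they were 119, 124 and 158 against 2003, 2527 and 2584, and at week 12 90.5, 114 and 227 against 1013, 1503 and 2112. The lowest PyMT value, 22.5, was that of the week 8 library with 2.87% of genes at 0. Fzd4 fell 9.60-fold over all weeks (log2 fold change -3.26 ± 0.32, edgeR adjusted p = 1.0e-08), and the value without the 2 libraries with most genes at 0 was -3.09. It passed at every age, with log2 fold changes of -2.10 ± 0.37, -3.44 ± 0.79, -4.09 ± 0.22 and -3.38 ± 0.41 and edgeR adjusted p of 0.0095, 0.032, 9.3e-05 and 0.00086. At week 6 the call ended without PyMT number 1 (0.053), and at week 8 without PyMT number 1 (0.11), FVB number 1 (0.050), FVB number 2 (0.065), PyMT number 3 (0.058) or FVB number 3 (0.071), the edgeR adjusted p then being in parentheses. For Fzd4 the adjusted p over all alternatives ran from 8.0e-07 to 0.053 at week 6 and 1.5e-05 to 0.11 at week 8. The endothelial marker sums given above did not overlap between the genotypes either, and their part in the result was not tested.

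The promoter windows of Axin2 and Fzd4, whose samples did not overlap, are shown with that of Wnt11, the called gene whose window holds a Tcf/Lef word. Each is the 250 bases before the gene's start in RefSeq on build GRCm38.p6, read 5′ to 3′ on the gene's strand.
Axin2 chr11:108920099-108920348: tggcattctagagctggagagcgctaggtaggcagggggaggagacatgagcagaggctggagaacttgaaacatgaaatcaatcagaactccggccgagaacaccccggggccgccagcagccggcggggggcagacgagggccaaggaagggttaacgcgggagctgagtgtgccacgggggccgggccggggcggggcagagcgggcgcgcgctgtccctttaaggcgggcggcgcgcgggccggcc
Fzd4 chr7:89404116-89404365: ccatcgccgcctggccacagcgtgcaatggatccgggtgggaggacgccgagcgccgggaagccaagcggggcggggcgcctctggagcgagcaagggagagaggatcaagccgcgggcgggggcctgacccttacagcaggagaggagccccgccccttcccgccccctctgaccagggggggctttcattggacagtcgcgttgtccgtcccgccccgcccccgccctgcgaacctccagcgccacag
Wnt11 chr7:98834862-98835111: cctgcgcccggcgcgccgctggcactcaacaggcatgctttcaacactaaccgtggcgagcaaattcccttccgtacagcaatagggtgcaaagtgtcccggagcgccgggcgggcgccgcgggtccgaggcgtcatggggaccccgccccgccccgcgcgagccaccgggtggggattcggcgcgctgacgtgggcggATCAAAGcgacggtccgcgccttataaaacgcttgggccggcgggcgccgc
Capitals mark the word. The words searched on both strands were CTTTGAA and CTTTGAT, then CTTTGTA and CTTTGTT, which share their first 5 letters, and the window of Wnt11 holds the reverse complement ATCAAAG from 51 to 45 bases before the start. Windows were at hand for 26 of the 40 genes, and 5 of them (19.2%) held a word, those of Fzd7, Lef1, Wnt5b, Wnt11 and Tcf7l2. Of all 27025 genes with a window 4527 (16.8%) held one. Among the called genes the share was 1 of 10 (10.0%). The windows of Axin2, Fzd4 and Wnt11 held 69.2%, 72.8% and 70.8% G and C, and the median over all windows of the 26 genes was 66.4%, against 52.4% over the windows of all genes. A matched word is a description of the sequence and not a bound site.

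**Figure D3:**
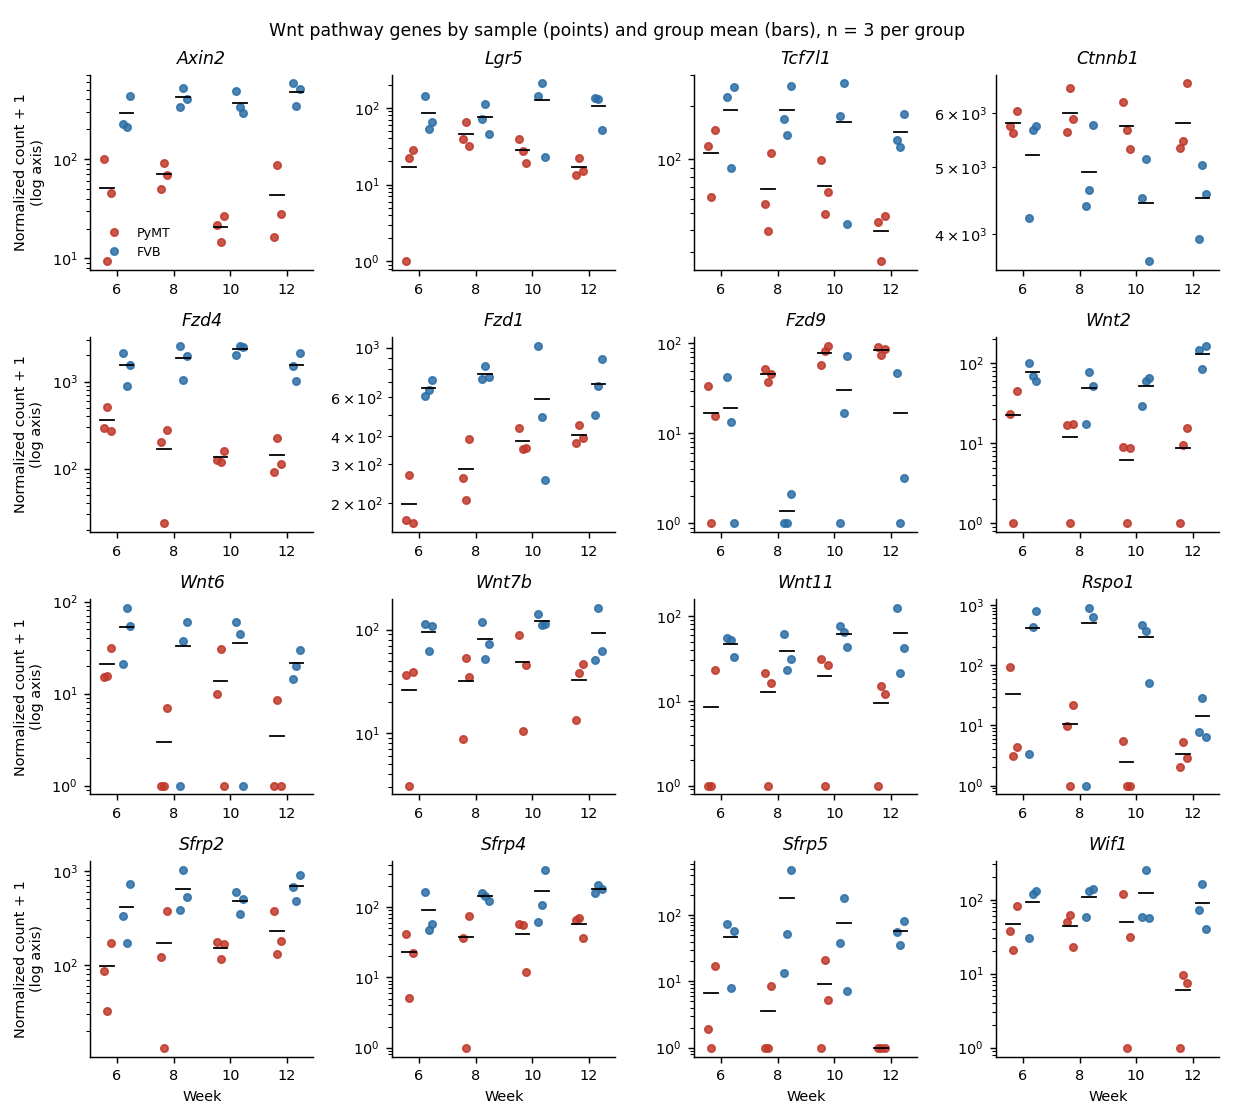
Normalized count (plus 1, log axis) by week for 16 Wnt genes, 1 point per sample and a bar at the mean of 3, PyMT red and FVB blue. Axin2 and Fzd4 are separate at every week, while Ctnnb1 lies between 3645 and 6624 in all samples and Rspo1 spreads from 0 to 902 within FVB.

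The ligands spanned a wide range of levels. On the scale of median normalized counts per kb of exon, the highest in FVB were Wnt5a with 55.4 and Wnt5b with 51.8, and in PyMT Wnt5b with 98.0 and Wnt5a with 41.7. Of the 8 tested ligands 4 were lower in PyMT over all weeks, 0 were higher and 4 did not pass, where 17.2% of all genes were called lower and 8.51% higher. The median log2 fold change of the 8 was -1.33. Of the 11 ligands Wnt2b, Wnt10a and Wnt16 were too low to test.

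Wnt2 (ENSMUSG00000010797, chr6:17938940-17980585, minus strand), a ligand that acts through β-catenin and is known from fibroblasts of the gland, had normalized counts of 0, 22.3 and 43.7 in PyMT against 59.0, 69.4 and 101 in FVB at week 6. At week 8 they were 0, 16.2 and 16.5 against 16.4, 50.9 and 77.9, at week 10 0, 7.68 and 8.01 against 28.0, 59.1 and 64.2, and at week 12 0, 8.55 and 14.8 against 83.2, 145 and 166. In each week 1 PyMT library was at 0, and the groups overlapped at week 8 and not at the other ages. Wnt2 fell 6.66-fold over all weeks (log2 fold change -2.74 ± 0.68, edgeR adjusted p = 0.0016). At week 12 the log2 fold change was -3.99 ± 0.93 (edgeR adjusted p = 0.015), and the call ended without PyMT number 2 (0.054) or FVB number 3 (0.055) and in the fit of all 24 samples (0.053). For Wnt2 the adjusted p over all alternatives ran from 8.9e-06 to 0.055 at week 12.

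Wnt7b (ENSMUSG00000022382, chr15:85365869-85412251, minus strand), a ligand of epithelium, ran over 12 samples from 2.09 to 88.1 (median 36.5) in PyMT and from 49.8 to 163 (median 109.8) in FVB. The lowest FVB sample lay below the highest PyMT sample, and the groups were separate at weeks 6, 10 and 12. It fell 2.85-fold (log2 fold change -1.51 ± 0.41, edgeR adjusted p = 0.0033). The weekly log2 fold changes were -1.87, -1.37, -1.29 and -1.47, and 0 of the 4 passed.

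Wnt11 (ENSMUSG00000015957, chr7:105983622-106003705, plus strand), a ligand known for signalling without β-catenin, ran from 0 to 30.3 (median 12.5) in PyMT and from 20.2 to 125 (median 46.6) in FVB. It was at 0 in 5 of 12 PyMT samples and in 0 of 12 FVB samples, and the groups were separate at each of the 4 weeks. Its log2 fold change was -2.17 ± 0.76 (edgeR adjusted p = 0.019), and 0 of 4 weekly tests passed. Wnt6 (ENSMUSG00000033227, chr1:74818466-74831893, plus strand), also an epithelial ligand, ran from 0 to 30.6 (median 6.68) in PyMT and from 0 to 84.8 (median 32.2) in FVB. It was at 0 in 5 PyMT and 2 FVB samples, and the groups overlapped at weeks 6, 8 and 10. Its log2 fold change was -2.32 ± 0.88 (edgeR adjusted p = 0.031), and the call ended without FVB number 1 of week 10 (edgeR adjusted p = 0.050). For Wnt6 the adjusted p over all alternatives ran from 0.0015 to 0.050.

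Wnt5a and Wnt5b, ligands best known for signalling without β-catenin, were measured in all 24 samples. Wnt5a ran from 95.6 to 499 (median 326) in PyMT and from 333 to 888 (median 433) in FVB, with a log2 fold change of -0.51 ± 0.17 (edgeR adjusted p = 0.015) that is under a fold change of 2. For Wnt5a the adjusted p over all alternatives ran from 0.0057 to 0.31 over all weeks. Wnt5b ran from 161 to 359.7 (median 257) in PyMT and from 77.0 to 381 (median 136) in FVB, and its log2 fold change over all weeks was 0.47 ± 0.26 (edgeR adjusted p = 0.14). At week 12 Wnt5b was 171, 256 and 259 in PyMT against 98.4, 122 and 133 in FVB without overlap, a log2 fold change of 1.0 ± 0.29 (edgeR adjusted p = 0.034). This call ended without FVB number 1 (0.055), PyMT number 2 (0.12), FVB number 2 (0.055), PyMT number 3 (0.12) or FVB number 3 (0.11), under DESeq2 and RLE scaling, where the log2 fold change was 0.97 in both, with a replicate block (0.079) and in the fit of all 24 samples (0.21). For Wnt5b the adjusted p over all alternatives ran from 0.011 to 0.21 at week 12. Wnt9a and Wnt10b had log2 fold changes of -0.35 ± 0.74 and -1.14 ± 0.84 and did not pass in any comparison.

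Among the ligands under the limit, Wnt10a, a ligand of the β-catenin branch, had 0 to 5 counts in the 12 PyMT samples and 0 to 64 in the 12 FVB samples. It was above 0 in 5 PyMT and 9 FVB samples. Wnt2b had 0 to 11 counts in PyMT and 0 to 17 in FVB, and Wnt16 0 to 8 and 0 to 42. The 12 PyMT samples of all 3 genes stayed at 11 counts or fewer. At week 6 Wnt10a was at 0 in all 3 PyMT libraries and above 0 in all 3 FVB libraries, with an FVB mean of 24.6 normalized counts. Against a floor of 3 counts per library it was 9.86-fold lower in PyMT. The PyMT libraries of that week are coarse, with peaks at 14, 25 and 13 counts. A floor of 3 counts may be too low for them, so this fold is no firm bound.

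Of the 11 tested receptors and co-receptors Fzd1 and Fzd4 fell in PyMT over all weeks, 0 rose and 9 did not pass both limits. Their share called lower, 18.2%, is close to the 17.2% of all genes. Their median log2 fold change was 0.10. In FVB the order of median levels per kb began with Fzd4 at 536, Lrp5 at 300.3, Lrp6 at 294, Fzd7 at 172 and Fzd1 at 158. In PyMT it began with Lrp5 at 420.5, Lrp6 at 312, Fzd7 at 169 and Fzd6 at 153, and Fzd4 stood at 49.0 per kb.

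Fzd1 (ENSMUSG00000044674, chr5:4753842-4758216, minus strand), a widely expressed frizzled, had normalized counts of 161, 166 and 267 in PyMT against 605, 644 and 716 in FVB at week 6, and 205, 258 and 386 against 723, 738 and 823 at week 8. The week 10 values were 350.0, 351 and 435 against 252, 486 and 1019.9, and at week 12 371, 393 and 448 against 496, 670.5 and 888. The groups overlapped at week 10 and not at the other ages. The FVB value of 252 at week 10 was that of FVB number 3, the library with 4.40% of genes at 0. The other FVB values of that week, 486 and 1019.9, lay above the highest PyMT value, 435. Fzd1 fell 2.17-fold over all weeks (log2 fold change -1.12 ± 0.19, edgeR adjusted p = 3.4e-05), and with the library size as the only scaling the log2 fold change was -0.86, under a fold change of 2. It passed at week 6 (-1.74 ± 0.25, edgeR adjusted p = 0.0048) and week 8 (-1.40 ± 0.28, edgeR adjusted p = 0.020), and the week 8 call ended without PyMT number 1 (0.089), FVB number 2 (0.073) or FVB number 3 (0.054). For Fzd1 the adjusted p over all alternatives ran from 0.00016 to 0.089 at week 8. At weeks 10 and 12 the log2 fold changes were -0.59 ± 0.46 and -0.71 ± 0.23, under a fold change of 2.

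Fzd5 and Fzd6, frizzled receptors of epithelia, lay higher in PyMT, though by less than a fold change of 2 over all weeks. Fzd5 ran from 211 to 497 (median 310.3) in PyMT and from 48.1 to 382 (median 209.9) in FVB, with a log2 fold change of 0.76 ± 0.26 (edgeR adjusted p = 0.020). Fzd6 ran from 459 to 787 (median 626) in PyMT and from 73.6 to 614 (median 438) in FVB, with a log2 fold change of 0.66 ± 0.22 (edgeR adjusted p = 0.016). The lowest FVB value of Fzd6, 73.6, was that of the week 10 library with 4.40% of genes at 0. At week 12 Fzd6 was 619.9, 658 and 668 in PyMT against 225, 319 and 394 in FVB, a log2 fold change of 1.10 ± 0.23 (edgeR adjusted p = 0.0086). Without FVB number 1 it was 0.91, and in the fit of all 24 samples the edgeR adjusted p was 0.10. For Fzd6 the adjusted p over all alternatives ran from 0.00039 to 0.10 at week 12. Luminal marker sums were higher in all 12 PyMT samples, and their part in these values was not tested.

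Fzd9 was the most uneven of the receptors. It had 0, 14.8 and 32.9 normalized counts in PyMT and 0, 12.3 and 41.7 in FVB at week 6, and 36.6, 44.7 and 51.5 against 0, 0 and 1.13 at week 8. At week 10 the values were 56.1, 80.7 and 93.8 against 0, 16.0 and 72.0, and at week 12 73.7, 85 and 90.5 against 0, 2.19 and 45.7. The groups were separate at weeks 8 and 12. The FVB value of 72.0 at week 10 was that of FVB number 3, the library with 4.40% of genes at 0. The other FVB values of that week, 0 and 16.0, lay below the lowest PyMT value, 56.1. At week 8 the 3 FVB libraries held 1 count in all and the 3 PyMT libraries 169, a ratio of 112. Its exact 95% interval, 19.9 to 4466, covers counting error only and takes reads as independent. FVB numbers 1 and 2 and PyMT number 2 of that week are coarse, with peaks at 18, 8 and 23 counts. The interval may thus be too narrow. The fitted log2 fold change, 6.47 ± 1.46 (edgeR adjusted p = 0.029), rests on that 1 count, and the call ended without PyMT number 1 (0.12), FVB number 2 (0.087), PyMT number 3 (0.099) or FVB number 3 (0.061) and with the replicate number as a block (0.084). For Fzd9 the adjusted p over all alternatives ran from 0.00017 to 0.12 at week 8. Over all weeks the log2 fold change was 2.08 ± 0.97 (edgeR adjusted p = 0.076). Fzd9 did pass over all weeks, as higher in PyMT, under DESeq2, voom, library size scaling and the replicate block, and without the 2 libraries with most genes at 0. It also passed without FVB number 1 of week 6, FVB number 1 of week 12, PyMT number 2 of week 6 or FVB number 3 of week 10.

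Lrp5 and Lrp6, the co-receptors needed for the β-catenin branch, were well expressed in every sample. Lrp5 ran from 1667 to 2743 (median 2175) in PyMT and from 1211 to 2008 (median 1553) in FVB, a log2 fold change of 0.44 ± 0.09 (edgeR adjusted p = 0.00038), under a fold change of 2. Lrp6 ran from 2702 to 3700.2 (median 3068) in PyMT and from 2419 to 3607 (median 2885) in FVB (0.10 ± 0.07, edgeR adjusted p = 0.29). Fzd7, a receptor known from basal cells of the gland, had a log2 fold change of 0.04 ± 0.11, with ranges of 593 to 1137 (median 812) in PyMT and 603 to 1065 (median 826) in FVB. Fzd2 and Fzd8 had adjusted p under 0.05 with log2 fold changes of -0.58 ± 0.22 and -0.85 ± 0.31, under a fold change of 2, and Fzd3 did not pass (0.25 ± 0.28). Over all weeks the adjusted p over all alternatives ran from 0.0016 to 0.27 for Fzd2 and from 0.0011 to 0.14 for Fzd8. Fzd10 had 0 to 25 counts in PyMT and 0 to 9 in FVB and was not tested.

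Secreted inhibitors were lower in PyMT in 4 of 7 cases over all weeks, and 0 were higher, against 17.2% and 8.51% of all genes. The median log2 fold change of the 7 was -1.79. Sfrp2, Sfrp4 and Sfrp5, decoys that hold the cysteine-rich domain of frizzled, and Wif1, which binds ligands through a domain of its own, fell. Of these, Sfrp5 passed the limit for testing mainly through the FVB samples. Sfrp1, Dkk2 and Dkk3 did not pass both limits. The fibroblast marker sums given above were lower in all 12 PyMT samples, as were the adipocyte sums, and their part in these results was not tested.

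Sfrp2 (ENSMUSG00000027996, chr3:83570243-83578238, plus strand), which stromal cells are known to secrete, had normalized counts of 31.3, 84.6 and 170.2 in PyMT against 172, 333 and 719 in FVB at week 6, and 12.2, 119 and 378 against 386, 530.0 and 1030.4 at week 8. Week 10 gave 114, 165 and 173 against 347, 502 and 599, and at week 12 130.3, 177 and 372 against 484, 669.9 and 912. The groups did not overlap at any of the 4 weeks, though PyMT at weeks 8 and 12 reached above FVB at week 6. Sfrp2 fell 3.47-fold over all weeks (log2 fold change -1.79 ± 0.36, edgeR adjusted p = 0.00018). It passed at week 10 (-1.62 ± 0.32, edgeR adjusted p = 0.012) and week 12 (-1.56 ± 0.40, edgeR adjusted p = 0.021). The week 12 call ended without PyMT number 2 (0.062), PyMT number 3 (0.086) or FVB number 3 (0.071), and in the fit of all 24 samples the adjusted p was 0.12 and 0.15. For Sfrp2 the adjusted p over all alternatives ran from 0.00014 to 0.12 at week 10 and 0.00091 to 0.15 at week 12.

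Sfrp4 (ENSMUSG00000021319, chr13:19714973-19724863, plus strand) ran from 0 to 73.5 (median 37.7) in PyMT and from 46.3 to 341 (median 153) in FVB, and the groups were separate at each of the 4 weeks. At week 12 it was 35.1, 63.7 and 68.4 in PyMT against 160.1, 183 and 205 in FVB. It fell 3.75-fold over all weeks (log2 fold change -1.91 ± 0.46, edgeR adjusted p = 0.0013) and passed at week 12 (-1.67 ± 0.36, edgeR adjusted p = 0.011, and 0.25 in the fit of all 24 samples). For Sfrp4 the adjusted p over all alternatives ran from 0.00025 to 0.25 at week 12.

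Sfrp5 (ENSMUSG00000018822, chr19:42272461-42276742, minus strand), a secreted inhibitor known from fat tissue, had normalized counts of 0, 0.890 and 15.9 in PyMT against 6.94, 57.3 and 71.9 in FVB at week 6, and 0, 0 and 7.65 against 12.6, 51.2 and 485 at week 8. At week 10 the counts were 0, 4.26 and 19.9 against 6.26, 37.4 and 180.4, and at week 12 all 3 PyMT libraries were at 0 against 34.0, 53.8 and 79.8 in FVB. PyMT samples were at 0 in 7 of 12 cases and FVB samples in 0 of 12. Sfrp5 reached 1 CPM in 13 of 24 samples, so it passed the limit for testing mainly through the FVB samples. Over all weeks the log2 fold change was -4.52 ± 0.97 (edgeR adjusted p = 0.00038), and week 12 passed (edgeR adjusted p = 0.0048). Against a floor of 3 counts per library Sfrp5 was at least 18.5-fold lower at week 12, a bound for counting error only. PyMT number 1 of that week is a coarse library with its peak at 12 counts.

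Wif1 (ENSMUSG00000020218, chr10:120471016-120537706, plus strand) had 19.8, 36.5 and 80.0 normalized counts in PyMT and 29.0, 119 and 131 in FVB at week 6, and 21.8, 48.7 and 60.9 against 56.8, 131 and 140.1 at week 8. At week 10 the values were 0, 30.7 and 117 against 54.8, 58.2 and 254, and at week 12 0, 6.47 and 8.55 against 39.4, 72.6 and 160.1. The groups overlapped at weeks 6, 8 and 10 and were separate at week 12. Wif1 fell 3.47-fold over all weeks (log2 fold change -1.79 ± 0.61, edgeR adjusted p = 0.016). At week 12 the log2 fold change was -4.09 ± 1.05 (edgeR adjusted p = 0.022), and the call ended without FVB number 2 (0.061) or PyMT number 3 (0.070) and with sample weights in limma's voom (0.055). For Wif1 the adjusted p over all alternatives ran from 8.1e-05 to 0.070 at week 12.

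Dkk3, a divergent member of the Dkk family, ran from 22.9 to 173 (median 102) in PyMT and from 119 to 306 (median 178) in FVB, and its log2 fold change over all weeks, -0.98 ± 0.22 (edgeR adjusted p = 0.00078), was just under a fold change of 2. At week 6 it was 22.9, 35.2 and 65.0 in PyMT against 137, 173 and 182 in FVB (-2.0 ± 0.52, edgeR adjusted p = 0.043), and the call ended without FVB number 1 (0.078), PyMT number 2 (0.057), FVB number 2 (0.13), PyMT number 3 (0.12) or FVB number 3 (0.15), with a replicate block (0.091) and without the filter (0.060). At week 12 it was 79.5, 112 and 172 against 258, 266 and 306 (-1.15 ± 0.32, edgeR adjusted p = 0.030), and the call ended without PyMT number 1 (0.080), FVB number 1 (0.058), FVB number 2 (0.051), PyMT number 3 (0.086) or FVB number 3 (0.067). The calls of Dkk3 at week 6 and at week 12 also ended with the library size as the only scaling. For Dkk3 the adjusted p over all alternatives ran from 0.0012 to 0.15 at week 6 and 0.0066 to 0.099 at week 12. Sfrp1, the Sfrp with the highest level per kb in PyMT next to Sfrp2 (68.6 and 68.7), ran from 146 to 525 (median 299.7) in PyMT and from 131 to 575 (median 284) in FVB, with a log2 fold change of 0.00 ± 0.22. Dkk2, which binds the Lrp co-receptors, had a log2 fold change of -0.76 ± 0.72 and did not pass.

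In the R-spondin and Lgr axis, Lgr5 (ENSMUSG00000020140, chr10:114887367-115024836, minus strand), an R-spondin receptor, stem cell marker and target of β-catenin, had normalized counts of 0, 20.9 and 27.2 in PyMT against 51.7, 65.2 and 140.2 in FVB at week 6, and 31.2, 38.2 and 63.8 against 44.1, 70.6 and 112 at week 8. At week 10 they were 17.9, 26.2 and 38.3 against 21.9, 143 and 206, and at week 12 12.3, 13.9 and 21.4 against 50.3, 127 and 135. The groups overlapped at weeks 8 and 10 and not at weeks 6 and 12, and the lowest FVB value, 21.9, was that of the week 10 library with 4.40% of genes at 0. Lgr5 fell 4.02-fold over all weeks (log2 fold change -2.01 ± 0.47, edgeR adjusted p = 0.00092). It passed at week 12 (-2.66 ± 0.58, edgeR adjusted p = 0.012, and 0.051 in the fit of all 24 samples). For Lgr5 the adjusted p over all alternatives ran from 9.4e-05 to 0.051 at week 12. Lgr4, the broadly expressed receptor of the same family, ran from 536 to 852 (median 695) in PyMT and from 429 to 815 (median 607) in FVB, with a log2 fold change of 0.21 ± 0.11 (edgeR adjusted p = 0.11).

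Rspo1, the R-spondin that luminal cells of the gland are known to secrete, reached 1 CPM in 11 of 24 samples and so missed the limit for testing. Its counts in PyMT were 2, 6 and 102 at week 6, 0, 9 and 35 at week 8, 0, 0 and 5 at week 10 and 1, 2 and 4 at week 12. In FVB they were 2, 567 and 885 at week 6, 0, 550 and 776 at week 8, 32, 372 and 640 at week 10 and 5, 5 and 22 at week 12. At weeks 6 and 8 the FVB samples were thus either at 550 counts or more or at 2 or fewer, and at week 12 all 3 were at 22 counts or fewer, while 11 of 12 PyMT samples were at 35 or fewer. The PyMT groups lay below FVB without overlap at weeks 10 and 12 and overlapped it at weeks 6 and 8. Rspo3 stayed at 26 counts or fewer in all PyMT samples and at 12 or fewer in all FVB samples.

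Of the nuclear arm, 2 of 5 tested genes were lower over all weeks, Axin2 and Tcf7l1, where 17.2% of all genes were. Tcf7l1 (ENSMUSG00000055799, chr6:72576372-72739248, minus strand), the Tcf factor best known as a repressor of targets, had normalized counts of 60.5, 118 and 145 in PyMT against 88.7, 225 and 255 in FVB at week 6, and 38.4, 55.3 and 108 against 136, 169 and 259.9 at week 8. The week 10 values were 48.2, 64.8 and 97.9 against 42.3, 175 and 268, and at week 12 25.6, 43.2 and 47.1 against 117, 128 and 180.4. The groups were separate at weeks 8 and 12. The FVB value of 42.3 at week 10 was that of FVB number 3, the library with 4.40% of genes at 0. The other FVB values of that week lay above the highest PyMT value, 97.9. It fell 2.49-fold over all weeks (log2 fold change -1.32 ± 0.28, edgeR adjusted p = 0.00040). At week 12 the log2 fold change was -1.82 ± 0.41 (edgeR adjusted p = 0.014), and the call ended without FVB number 3 (0.068). For Tcf7l1 the adjusted p over all alternatives ran from 0.00035 to 0.068 at week 12.

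Ctnnb1 (ENSMUSG00000006932, chr9:120838334-120869625, plus strand), which encodes β-catenin, was the gene of the set with the highest level per kb in both genotypes, 1119.9 in PyMT and 902 in FVB. Its normalized counts were 5612, 5750.1 and 6038 in PyMT against 4212, 5658 and 5742 in FVB at week 6, and 5635, 5869.9 and 6518 against 4385, 4636 and 5753 at week 8. Week 10 gave 5309.7, 5670.5 and 6222 against 3645, 4511 and 5138, and at week 12 5337, 5466 and 6624 against 3925, 4568 and 5041. The groups overlapped at weeks 6 and 8 and PyMT was higher without overlap at weeks 10 and 12. The log2 fold change over all weeks was 0.31 ± 0.08 (edgeR adjusted p = 0.0035), under a fold change of 2. This is RNA, and the amount or place of the protein was not measured.

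Lef1 (ENSMUSG00000027985, chr3:130813389-130927274, plus strand), a Tcf/Lef factor and itself a target, had few reads, with 0 to 15 counts in PyMT and 0 to 39 in FVB. It was at 0 in 6 PyMT and 5 FVB samples and is given no test. Tcf7 ran from 0 to 69.2 (median 38.8) in PyMT and from 11.6 to 189 (median 67.7) in FVB (-0.99 ± 0.59, edgeR adjusted p = 0.17), and Tcf7l2 from 228 to 1007 (median 623) and from 344 to 1021 (median 757) (-0.30 ± 0.18, edgeR adjusted p = 0.16). Neither passed.

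**Figure D4:**
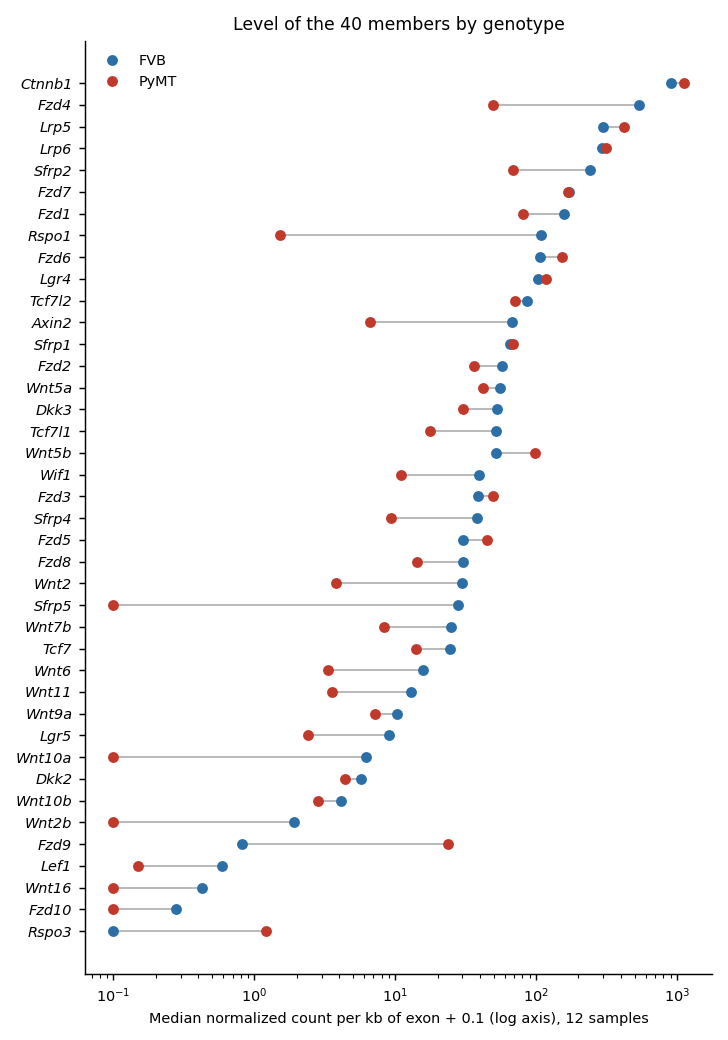
Median normalized count per kb of exon over 12 samples (log axis, a small constant added) for the 40 genes, PyMT red and FVB blue, ordered by the FVB level. Ctnnb1 is at the top with 1120 in PyMT and 902 in FVB, the longest lines are those of Sfrp5, Rspo1, Wnt10a and Fzd9, and genes with a median of 0 sit at the left edge.

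The next question was what each stage showed. At week 6 (hyperplasia) 3 of the 33 genes were lower, Fzd1, Fzd4 and Dkk3, and 0 were higher, where 6.46% of all genes were called lower and 3.58% higher. At week 8 (adenoma/MIN) 3 were lower, Fzd1, Fzd4 and Axin2, and Fzd9 was higher, against 6.37% and 3.57% of all genes. At week 10 (early carcinoma) 3 were lower, Fzd4, Sfrp2 and Axin2, and 0 were higher, against 9.09% and 4.83%. At week 12 (late carcinoma) 10 were lower, Wnt2, Fzd4, Sfrp2, Sfrp4, Sfrp5, Dkk3, Wif1, Lgr5, Axin2 and Tcf7l1, and 2 were higher, Wnt5b and Fzd6, against 13.0% and 7.75% (20.7% in either direction). Inhibitors made up 5 of the 10 lower genes at week 12, and in the fit of all 24 samples 6 of the 12 calls of that week were left. Leaving out 1 library gave 1 call at week 8 without PyMT number 1, FVB number 2 or FVB number 3 and 2 calls without PyMT number 3. It gave 5 calls at week 10 without FVB number 3, where Lgr5 and Tcf7l1 were added, and 7 at week 12 without FVB number 3. The median log2 fold change of the 33 genes was -0.81, -0.77, -0.55 and -0.86 at weeks 6, 8, 10 and 12, and it is the same at week 12 with Sfrp5 at its bound. Genes whose 3 PyMT samples lay below all 3 FVB samples numbered 11, 11, 9 and 17 of 33, where 20.4%, 21.7%, 21.6% and 25.2% of all genes did. Those with the opposite order numbered 0, 2, 3 and 7, where 16.2%, 18.4%, 18.9% and 21.5% of all genes did.

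**Figure D5:**
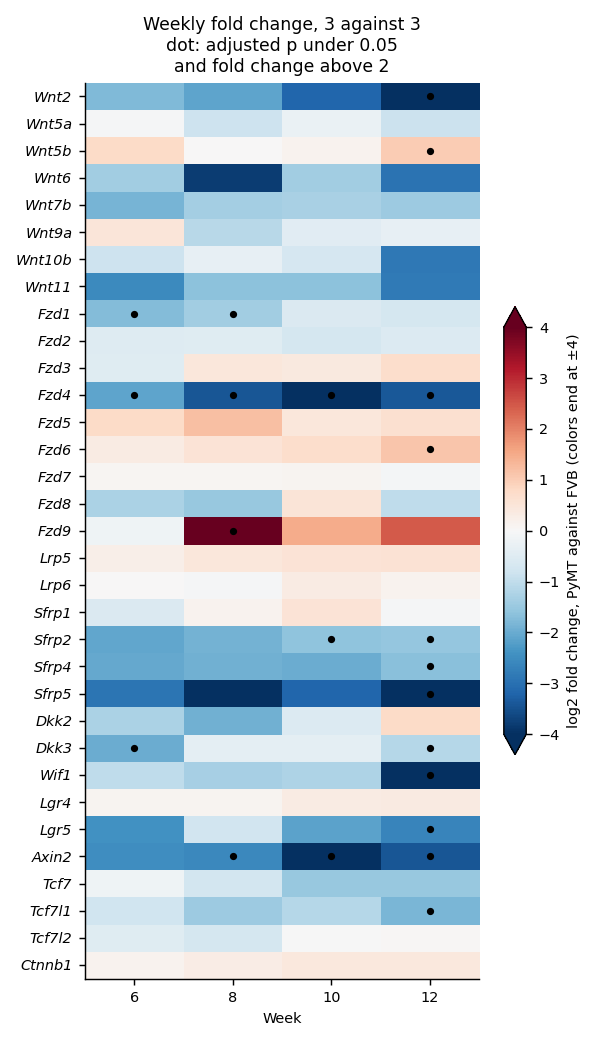
Log2 fold change of PyMT against FVB at weeks 6, 8, 10 and 12 for the 33 tested Wnt genes, 3 samples a group, blue for lower and red for higher in PyMT, with colors ending at 4 in both directions. Dots mark calls, which number 3, 4, 3 and 12 by week, and Fzd4 is the gene with a dot at each week.

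Whether the Wnt genes changed as lesions became malignant was asked of the 8 groups of genotype and week together, in 1 model over the 24 samples. Between the PyMT carcinomas of weeks 10 and 12 and the PyMT lesions of weeks 6 and 8, 0 of the 33 genes were called in edgeR, as were 0 (0%) of the 14918. At an unadjusted p under 0.05 there were 5 of the 33 and 798 of all genes, and DESeq2 and limma's voom called 41 and 19 genes, of which 0 were Wnt genes. The 5 were Fzd1 (0.73 ± 0.25), Fzd4 (-0.82 ± 0.39), Axin2 (-1.01 ± 0.44), Dkk3 (0.56 ± 0.26) and Lrp6 (0.22 ± 0.10), in log2, with edgeR adjusted p of 0.70, 0.92, 0.86, 0.92 and 0.90. Between the later and the earlier weeks in FVB, 0 of the 33 genes were called, against 0.0134% of all genes, with 3 of the 33 and 974 of all at an unadjusted p under 0.05 and 38 and 25 genes called by DESeq2 and voom. The change of the PyMT to FVB difference itself had 0 calls among the 33 and 0 (0%) among all genes, with 2 of the 33, Fzd1 and Axin2, and 815 of all at an unadjusted p under 0.05, and 8 and 32 genes called by DESeq2 and voom. For Fzd1 the difference moved by 0.90 ± 0.35 in log2 (edgeR adjusted p = 0.80) and for Axin2 by -1.27 ± 0.60 (edgeR adjusted p = 0.90). Week 12 alone was not tested against the other weeks, so the counts by week stand side by side.

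A list of 50 other Wnt pathway genes was read in the same way. Of these 36 were tested, 14 were under the limit, and Wnt3a, Wnt7a, Dkk1, Dkk4, Sost and Sp5 had no count in any sample. Over all weeks 4 of the 36 were higher, 8 were lower and 24 did not pass, with a median log2 fold change of -0.06. These are 11.1% higher and 22.2% lower, near the 8.51% and 17.2% of all genes. At weeks 6, 8, 10 and 12 the list had 1, 2, 3 and 5 genes higher, where 3.58%, 3.57%, 4.83% and 7.75% of all genes were, and 2, 0, 1 and 5 lower, where 6.46%, 6.37%, 9.09% and 13.0% were.

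The genes of that list called at 2 or more weeks were Wnt4, Pygo1, Kremen1, Tle2, Tnfrsf19 and Cd44. The calls of Cd44 at weeks 8 and 10 and of Pygo1 and Kremen1 at week 6 each held in 7 alternatives and ended in 6. The call of Tnfrsf19 at week 6 ended in 5 and that of Wnt4 at week 10 in 3. The remaining weekly calls of these genes ended in 4 or fewer. Wnt4, the ligand that acts after progesterone in ductal side branching, ran from 0 to 56.2 (median 19.6) in PyMT and from 133 to 456 (median 263) in FVB without overlap, a log2 fold change of -3.78 ± 0.55 (edgeR adjusted p = 3.4e-06). Pygo1, a nuclear partner of β-catenin, ran from 0 to 50.7 (median 13.4) in PyMT and from 113 to 266 (median 171) in FVB, also without overlap (-3.48 ± 0.57, edgeR adjusted p = 1.6e-05). Kremen1, a receptor for Dkk proteins, had a log2 fold change of -1.02 ± 0.16 (edgeR adjusted p = 9.8e-06), which fell under a fold change of 2 without FVB number 1 of week 10 (-0.96 in log2), PyMT number 2 of week 6 (-0.98 in log2), FVB number 2 of week 6 (-0.998 in log2), PyMT number 2 of week 8 (-0.92 in log2), FVB number 2 of week 8 (-0.99 in log2), FVB number 2 of week 12 (-0.97 in log2), FVB number 3 of week 8 (-0.99 in log2) or PyMT number 3 of week 12 (-0.997 in log2), with the library size as the only scaling (-0.75), without the filter (-0.99) and under voom (-0.99).

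Higher in PyMT were Tle2, a co-repressor of Tcf factors, with 373 to 678 (median 526) normalized counts in PyMT and 67.3 to 257 (median 194) in FVB (1.49 ± 0.16, edgeR adjusted p = 3.4e-08). Tnfrsf19, a receptor listed as a target, had a log2 fold change of 1.35 ± 0.27 (edgeR adjusted p = 0.00020). Cd44, an adhesion molecule listed as a target, had a log2 fold change of 0.98 ± 0.12 (edgeR adjusted p = 1.6e-07), under 2-fold. Procr, also listed as a target, went the other way and was lower in PyMT (-2.45 ± 0.55, edgeR adjusted p = 0.00062). It ran from 0 to 61.8 in PyMT and from 79.4 to 195 in FVB. The listed targets Ccnd1 (0.58 ± 0.27) and Myc (-0.52 ± 0.25) did not pass. A pair was picked after the values were seen. Nkd1, a feedback inhibitor that β-catenin induces, ran from 0 to 49.4 (median 21.1) in PyMT and from 69.5 to 241 (median 182) in FVB without overlap (-3.09 ± 0.59, edgeR adjusted p = 0.00011). Rnf43, a ligase that removes frizzled receptors from the cell surface, ran from 491 to 1006 (median 743) in PyMT and from 18.8 to 469 (median 279) in FVB, again without overlap (1.5 ± 0.31, edgeR adjusted p = 0.00026).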

How the data were processed

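Mammary tissue of 24 mice (3 PyMT and 3 FVB at each of 4 weeks) was sequenced as total RNA depleted of ribosomal RNA, in directional libraries. The authors trimmed adapters, used GSNAP for alignment to the mm9 genome and HTSeq for gene counts, and deposited these counts raw, under Ensembl identifiers. The strand setting of the counting is not given in the sources used here, and genes that overlap a Wnt gene on the other strand held few reads (at most 893 in all, for Ulk4 beside Ctnnb1). GENCODE M1 gave symbols, exon lengths and coordinates.

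Groups came from the sample labels. Genes with at least 1 CPM in at least 12 samples (14918) were tested in R 4.3.3 with edgeR 4.0.16 (quasi-likelihood test, TMM scaling, Benjamini-Hochberg adjustment), with DESeq2 1.42.0 and limma 3.58.1 (voom with sample quality weights) as alternatives. The standard error is the log2 fold change over the square root of F. To normalize, each count was divided by its sample's DESeq2 size factor. Other alternatives were RLE or library size scaling, no filter, a replicate block, the fit of all 24 samples, and leaving out libraries. The fits were tested on simulated negative binomial counts. These lacked the coarse low counts seen in some libraries, so that test does not cover them. Python 3.11.15, pandas 2.3.3, NumPy 2.4.6, SciPy 1.17.1 and matplotlib 3.10.9 made summaries and plots.

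The Wnt genes, the other lists and the markers were chosen with earlier results of these data known. Named by rule were members called over all weeks, with Axin2, Lef1, Lgr5 and Ctnnb1, and other pathway genes called at 2 or more weeks. Sample values of Fzd9, Dkk3, Fzd6, Wnt5b and Rspo1 were given outside this rule. Values of Nkd1, Rnf43, Procr, Ccnd1 and Myc were likewise given outside it, and the remaining members are described more briefly. Totals of 6969375 to 13516601 counts leave few reads for genes near 1 CPM, and intervals and floors cover counting error only. The intervals and floors take reads as independent, which coarse libraries may not meet. Duplicate libraries were looked for by chi-square per gene between replicates, which was 19.6 to 223 over 24 pairs, where copies would give near 1.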

Additional observations from a re-analysis of the deposited data

How the results depend on the processing

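Over all weeks the number of Wnt genes called, 13, was 13 to 15 under every alternative, and 13 to 14 with each library left out in turn. Fzd9 was added, as higher in PyMT, under DESeq2, voom (with Fzd8) and the replicate block (with Dkk3). All 13 were called again under DESeq2, RLE scaling, no filter, voom and the replicate block, and without the 2 libraries with most genes at 0 (15 calls, with Dkk3 and Fzd9 added). Library size scaling lost Fzd1 and added Fzd5 and Fzd9, and the absence of a filter added Rspo1 and Wnt10a. Library size scaling shifted the median log2 fold change of all genes by 0.29 over all weeks and by 0.24 to 0.32 by week. The weekly counts varied more. With 3 calls at week 6, DESeq2 gave 5 and leaving out libraries 2 to 3. With 4 at week 8, DESeq2 and voom each gave 7 and leaving out libraries 1 to 4, the 1 being without PyMT number 1, FVB number 2 or FVB number 3 (2 without PyMT number 3). With 3 at week 10, leaving out libraries gave 3 to 5, the 5 being without FVB number 3. With 12 at week 12, the fit of all 24 samples gave 6 and leaving out libraries 7 to 11, the 7 being without FVB number 3. The carcinoma, FVB age and change comparisons gave 0 to 0 throughout. The causes were not tested. None of the called values changed its sign under any alternative. With the replicate number as a block the counts were 3, 4, 3 and 11 by week, 15 over all weeks and 0 in the other comparisons. The block exchanged Dkk3 for Sfrp2 at week 6 and Fzd9 for Sfrp5 at week 8, and lost Wnt5b at week 12. The labels tie the replicate numbers to no shared litter or batch. Deviations from group means correlated at -0.03 to 0.18 between genotypes where week and number matched (4 of 12 pairs above 0.1) and at -0.13 to 0.09 for others (0 of 24), and 14 of 24 samples correlated best with their own number, a hint of pairing from the data and not from the design. Coarse low counts limit genes under about 25 counts.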
